A study of Mus musculus with 3 samples.

Results

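A set of 10 broadly expressed genes whose human counterparts are mutated in inherited nephrotic syndrome or related kidney disease was examined for binding of the forkhead transcription factors Foxc1 and Foxc2 in mouse glomeruli. The set holds the coenzyme Q genes Coq2, Coq6, Coq8b and Pdss2, the nuclear pore genes Nup93, Nup107, Nup133 and Nup205, and Wdr73 and Smarcal1. The 10 genes were listed by function, with earlier results of these data known, from among 21887 protein-coding genes of the autosomes, X and Y. Every peak was taken whose summit lay in the RefSeq gene span (GRCm38, the assembly also called mm10) or within 50 kb of either end. This gave 9 of 5207 Foxc1 peaks and 3 of 2878 Foxc2 peaks. The data came from chromatin immunoprecipitation followed by sequencing (ChIP-seq) on glomeruli, the capillary tufts that filter blood in the kidney, from C57BL/6 mice aged 8 weeks with no other genotype given. The Foxc1 library used antibody D8A6 (CST) and the Foxc2 library antibody AF6989 (R&D Systems), and a library of input DNA was not analysed here. With 1 library for each antibody there is no spread between replicates, so no test between the antibodies was run and the values describe these libraries. Glomeruli hold podocytes, mesangial cells and endothelium, and peaks from these cell types cannot be told apart in this material.

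Coenzyme Q is a lipid that carries electrons in the respiratory chain of mitochondria, and its loss injures podocytes, the epithelial cells that wrap the glomerular capillaries. Nuclear pores are channels in the nuclear envelope built from nucleoporins, of which Nup93 and Nup205 belong to the inner ring and Nup107 and Nup133 to the Y-shaped outer complex. All cells need these machineries, yet in humans some mutations in their genes present as kidney disease. Foxc1 and Foxc2 are related factors of the forkhead family, expressed in podocytes.

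The windows of the 10 genes held 12 peaks in all, 9 of Foxc1 and 3 of Foxc2. Foxc1 summits were near 7 of the 10 genes, against 29.3% of all protein-coding genes under the same rule, and Foxc2 summits near 3, against 23.2%. A summit of either antibody was near 8 of the 10, against 39.9% of all genes. Pdss2 and Nup107 had both, while 12.5% of all genes did. Nup93 and Nup205 had neither, as did 60.1% of all genes. The genes are long, with a median span of 47.1 kb against 17.2 kb over all protein-coding genes. The rule adds 50 kb on either side of every span, long or short. How gene length bears on these counts was not tested. Per length, the windows of the 10 genes held 5.31 Foxc1 summits per Mb (exact Poisson 95% interval 2.43 to 10.1, counting error only), against 2.61 per Mb in the windows of all protein-coding genes. For Foxc2 the density was 1.77 per Mb in the windows of the 10 genes (exact interval 0.365 to 5.17), against 1.60 per Mb in those of all genes. The intervals treat summits as independent, although 2 of the 9 Foxc1 summits lie at the Wdr73 start. Because the genes were listed with earlier results known, no conclusion is drawn from the intervals. Whether the 10 genes differ from all genes was not tested.

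**Figure D1:**
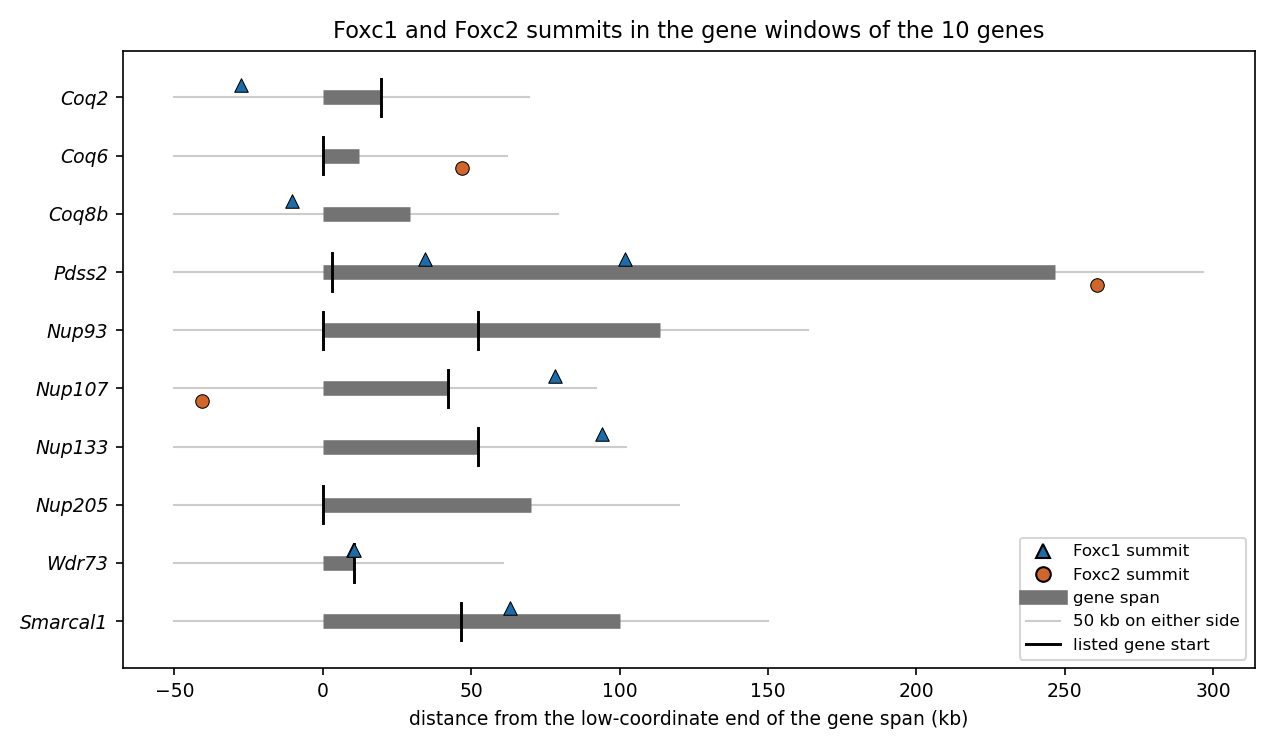
Positions of the summits of Foxc1 (triangles) and Foxc2 (circles) around each of the 10 genes, in kb from the low-coordinate end of the gene span, with the span as a thick bar, the 50 kb on either side as a thin line and the listed gene starts as vertical ticks. Wdr73 is the only gene with summits at its start, where its 2 Foxc1 summits overlie each other at this scale, and the windows of Nup93 and Nup205 are empty.

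Wdr73 was the only member with a summit within 1 kb of its own start. It encodes a WD-repeat protein and is mutated in Galloway-Mowat syndrome, which joins nephrotic syndrome with a small brain. The gene lies on the minus strand of chromosome 7 (80890723 to 80901269). A Foxc1 peak at 80901166 to 80901455 had a fold enrichment of 5.14 over the local background, with its summit 73 bp before the start. A further Foxc1 peak at 80900664 to 80900976 had a fold of 4.90 and its summit 454 bp after the start, inside the gene. The peaks are separated by 189 bp, and their summits lie 527 bp apart on either side of the start. Their folds stand at percentiles 55.9 and 50.4 of the Foxc1 list, near its median of 4.90. No Foxc2 summit lay in the window, and the nearest was 201.75 kb from the span. Of the 9 members with a start listed in the RefSeq promoter table (Coq8b is not listed there), 1 had a Foxc1 summit within 1 kb of it, against 2.7% of 17492 protein-coding genes with a listed start, and 0 had a Foxc2 summit there, against 8.36%.

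The 250 bases before the start of Wdr73 and of Bend3 are shown because they are the promoter windows that contain a summit assigned to a member (Foxc1 at Wdr73, and at Bend3 the Foxc2 summit counted for Pdss2). Both run 5′ to 3′ along the gene's strand, from RefSeq (GRCm38.p6), and capitals mark the part covered by the peak.
Wdr73, chr7:80901270-80901519, minus strand: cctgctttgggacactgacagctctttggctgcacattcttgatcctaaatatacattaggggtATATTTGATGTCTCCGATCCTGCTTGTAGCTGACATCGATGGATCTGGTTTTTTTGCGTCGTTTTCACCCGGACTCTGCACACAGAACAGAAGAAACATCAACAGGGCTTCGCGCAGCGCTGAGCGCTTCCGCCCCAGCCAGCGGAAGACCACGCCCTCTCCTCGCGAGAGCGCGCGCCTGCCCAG
Bend3, chr10:43478890-43479139, plus strand: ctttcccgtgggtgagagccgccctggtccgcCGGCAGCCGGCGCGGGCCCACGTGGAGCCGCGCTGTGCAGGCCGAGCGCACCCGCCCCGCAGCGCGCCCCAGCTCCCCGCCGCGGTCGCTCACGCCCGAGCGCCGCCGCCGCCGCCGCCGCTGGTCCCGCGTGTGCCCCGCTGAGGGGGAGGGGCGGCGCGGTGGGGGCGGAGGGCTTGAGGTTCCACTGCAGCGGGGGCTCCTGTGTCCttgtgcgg
At Wdr73 the peak covers bases 186 to 1 before the start, and at Bend3 it covers bases 218 to 9. The forkhead 7-mers TGTTTAC and TGTTTAT, searched on both strands, occur in neither stretch. This Wdr73 peak also runs past the start, beyond the stretch shown. The further Foxc1 peak inside Wdr73 was not searched. Over the full windows of 300 bases (250 before and 50 after a start), the 7-mers were present at 1 of the 10 listed starts of the members, at Coq2, against 6.73% of all 21263 listed starts. They were present at 17% of the 536 starts with a Foxc1 summit within 1 kb and at 4.86% of the 1729 starts with a Foxc2 summit within 1 kb. A match is only a description of the letters in this window.

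Among the coenzyme Q genes, Pdss2 had the most peaks. It encodes a subunit of the enzyme that builds the isoprenoid tail of coenzyme Q, and mice with a mutation in it develop kidney disease. The gene is the longest of the set (chromosome 10, 43218248 to 43464882, 246.6 kb). Foxc1 peaks inside the gene had folds of 3.80 at 43252402 to 43252656 and 4.11 at 43319800 to 43320152, with summits 31.0 and 98.5 kb from the listed start. These folds stand at percentiles 14.2 and 25.0 of the Foxc1 list, among its weaker peaks. The Foxc2 peak, at 43478922 to 43479131 with a fold of 4.30 (percentile 62.4 of the Foxc2 list), had its summit 14.1 kb beyond the gene and 147 bp before a listed start of Bend3, which encodes a chromatin protein with BEN domains. The nearest Foxc1 summit to it was 159 kb away.

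Coq8b, formerly Adck4, encodes an atypical kinase-like protein of the coenzyme Q complex, and it had the highest of the 9 Foxc1 peaks. That peak, on chromosome 7 at 27218063 to 27218465, had a fold of 6.96 and a deposited −log10 q of 20.7, which places it at percentile 77.5 of the Foxc1 list, at rank 1154 of 5207. Its summit lay 10.4 kb outside the Coq8b span (27228676 to 27257949) and inside the neighbouring gene Itpkc, an inositol trisphosphate kinase gene whose listed start is 59 bp from the end of the Coq8b span. By position the peak is thus within another gene, and it was counted for 7 protein-coding genes under the distance rule. Coq8b had no Foxc2 summit in its window, and the nearest was 223.8 kb from its span.

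Coq2 encodes the transferase that joins the isoprenoid tail to the ring of coenzyme Q. Its single Foxc1 peak, on chromosome 5 at 100626796 to 100627097, had a fold of 3.75 (percentile 12.3) and lay outside any protein-coding gene. The summit was 27.7 kb beyond the span, at the end away from the start, 47.3 kb from that start, and it was counted for Coq2 alone. The Foxc2 summit nearest to the Coq2 span was 529 kb from it. Coq6, which encodes a monooxygenase that modifies the ring, was the only member near a Foxc2 summit that had no Foxc1 summit. That Foxc2 peak, on chromosome 12 at 84408682 to 84408933, had a fold of 3.78 (percentile 37.4 of the Foxc2 list) and lay 35.0 kb beyond the gene. Its summit was 235 bp from the start of Entpd5, which encodes a nucleotide-hydrolysing enzyme of the endoplasmic reticulum, and 274 bp from the start of Bbof1, a basal body gene. The nearest Foxc1 summit to Coq6 was 77.4 kb from its span, outside the window.

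The nuclear pore genes had no summit inside any of their 4 spans. Nup107 (chromosome 10, 117750621 to 117792736) had 1 peak of each antibody, on opposite sides of the gene. The Foxc1 peak at 117828659 to 117828911 had a fold of 5.15 (percentile 56.1) and its summit lay 36.0 kb beyond the gene, inside Rap1b, which encodes a small GTPase of the Ras family. The Foxc2 peak at 117709738 to 117710036 had a fold of 2.75 and a −log10 q of 1.90, the lowest of the 3 Foxc2 peaks by either value. It stands at percentile 2.41 of the Foxc2 list, and its summit was 733 bp inside Mdm2, which encodes the ubiquitin ligase of p53. A further Foxc2 summit lay 53.3 kb from Nup107, just outside the window. The nearest Foxc2 summit to the Foxc1 peak was 17.2 kb from it, the closest approach of the antibodies in the set.

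Nup133 (chromosome 8, 123897114 to 123949265) had 1 Foxc1 peak, at 123990945 to 123991201 with a fold of 4.75 (percentile 45.7), and no Foxc2 peak. Its summit lay 41.8 kb beyond the gene, the farthest of all assigned summits, and 7.98 kb from the start of Abcb10, a mitochondrial transporter gene. Nup93 (chromosome 8, 94214564 to 94328100) had its nearest Foxc1 summit 59.5 kb from the span, the Foxc1 summit closest to the window's edge on its outer side, and its nearest Foxc2 summit at 753 kb. Nup205 (chromosome 6, 35177616 to 35247599) stood farthest from both lists, with its nearest Foxc1 summit at 486 kb and its nearest Foxc2 summit at 2183 kb. No other member had its nearest Foxc1 summit more than 77.4 kb from its span.

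Smarcal1, which encodes a helicase-like protein that anneals DNA strands at stalled replication forks and is mutated in Schimke immuno-osseous dysplasia, had 1 Foxc1 peak and no Foxc2 peak. The peak (chromosome 1, 72599508 to 72599754) lay inside the gene, 16.5 kb after the listed start, with a fold of 3.34. It was the weakest Foxc1 peak of the set, at percentile 4.49 of the list. The nearest Foxc2 summit was 1107 kb from the span.

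The promoters of Coq2 and Nup107, which had no summit within 1 kb of their starts, are shown for the letters they contain. They give the 250 bases before the start, 5′ to 3′ along the gene's strand, from RefSeq (GRCm38.p6). Capitals mark matches, on either strand, to the forkhead 7-mers, to the CCAAT box, to CCGGAAG as a core of ETS factor motifs, and to the palindrome bound by NRF1, a factor of mitochondrial and housekeeping genes.
Coq2, chr5:100674257-100674506, minus strand: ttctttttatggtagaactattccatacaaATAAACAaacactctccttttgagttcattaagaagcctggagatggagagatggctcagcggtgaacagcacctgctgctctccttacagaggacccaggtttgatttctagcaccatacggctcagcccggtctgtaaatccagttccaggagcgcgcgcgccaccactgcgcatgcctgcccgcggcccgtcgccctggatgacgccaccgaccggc
Nup107, chr10:117792706-117792955, minus strand: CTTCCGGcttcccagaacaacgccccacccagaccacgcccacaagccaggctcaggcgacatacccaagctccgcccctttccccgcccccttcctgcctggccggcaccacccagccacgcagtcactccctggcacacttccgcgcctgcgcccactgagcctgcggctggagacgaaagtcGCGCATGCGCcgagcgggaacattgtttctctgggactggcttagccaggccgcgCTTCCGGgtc
Coq2 holds ATAAACA, the reverse complement of TGTTTAT, at bases 220 to 214 before its start, while its nearest Foxc1 summit lay 47.3 kb from that start. Nup107 holds the NRF1 palindrome at bases 65 to 56 and CTTCCGG, the reverse complement of CCGGAAG, at bases 250 to 244 and 10 to 4. In windows of 300 bases, CCGGAAG was present at 3 of the 10 listed starts of the members against 11.6% of all listed starts, the NRF1 palindrome at 1 against 1.33%, and the CCAAT box at 4 against 38.2%. The last share is near that of all starts, and the others rest on few matches.

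Apart from the Coq8b peak, no peak of the set stood above percentile 62.4 of its list. The 9 Foxc1 peaks had folds of 3.34 to 6.96 with a median of 4.75, beside a median of 4.90 and a highest fold of 50.5 in the whole Foxc1 list. Only 3 of the 9 lay above the list's median. The 3 Foxc2 peaks had folds of 2.75, 3.78 and 4.30, beside a list median of 3.97 and a highest fold of 16.0. Folds come from the authors' peak caller and are compared within a list. The exception is the choice of genes named from the other gene lists, which took the highest fold of either antibody. None of the 9 Foxc1 peaks was overlapped by a Foxc2 peak, against 8.2% of all Foxc1 peaks, and none of the 3 Foxc2 peaks by a Foxc1 peak, against 14.8% of all Foxc2 peaks. At these counts, 0 is near the share of each list.

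**Figure D2:**
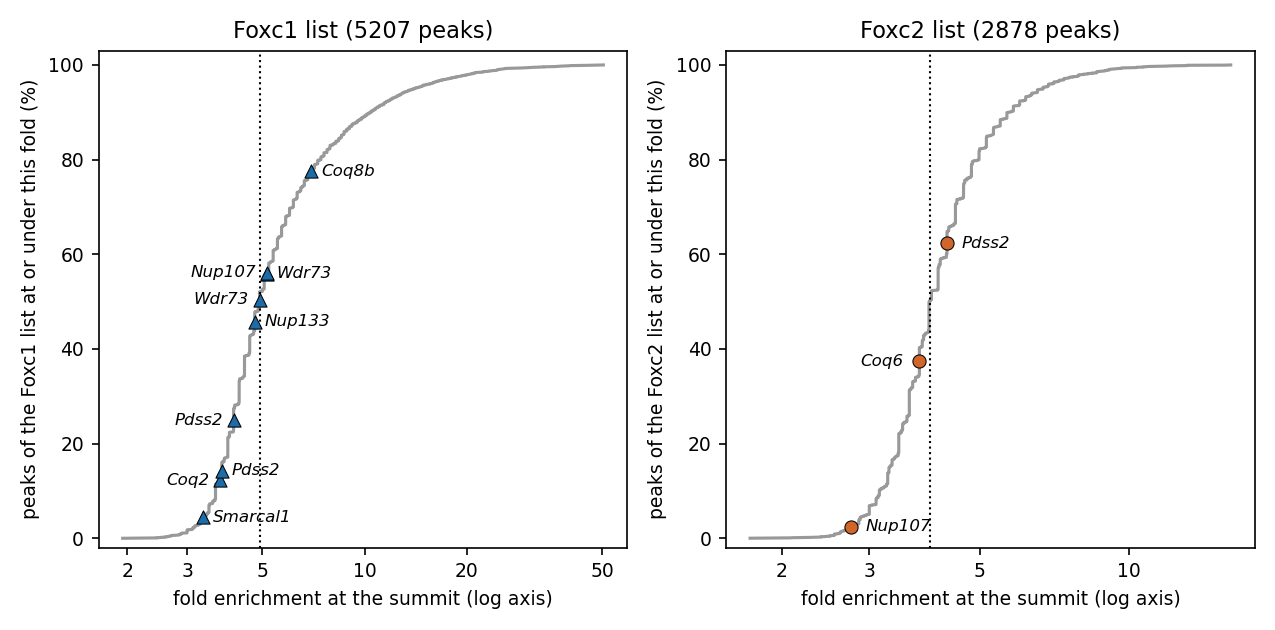
Cumulative share of peaks (%) by fold enrichment at the summit (log axis) in the Foxc1 list (left) and the Foxc2 list (right), with the peaks of the 10 genes marked and each list's median as a dotted line. The Coq8b peak, at a fold of 6.96, is the highest of the 9 marked Foxc1 peaks, and the marked Foxc2 peaks lie between 2.75 and 4.30.

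The positions of the few summits are given beside the shares of each list, and the lists themselves differ in how often peaks lie at gene starts. A contrast between the antibodies near the 10 genes was not tested. All 3 Foxc2 summits were within 1 kb of a listed start, and in each case it belonged to a neighbour (Entpd5 with Bbof1, Bend3 and Mdm2) and not to the member. Of the 2786 Foxc2 peaks on chromosomes with listed starts, 50.6% had their summit within 1 kb of a listed start. Of the 9 Foxc1 summits, the 2 at Wdr73 were within 1 kb of a listed start. The share was 8.65% of the 5018 Foxc1 peaks on chromosomes with listed starts. The other 7 lay 7.98 to 98.5 kb from any listed start. Of the 12 summits, 4 were inside the span of another protein-coding gene, and 4 Foxc1 summits were inside a member's own span, in Pdss2, Wdr73 and Smarcal1. A Foxc1 summit inside the span was thus found for 3 of the 10 members, against 9.53% of all genes, and a Foxc2 summit inside the span for 0 of 10, against 7.58%. These shares were not adjusted for span length, and the members' median span was 47.1 kb against 17.2 kb over all genes. Because windows of neighbouring genes overlap, a summit was counted for 1 to 7 protein-coding genes (median 3.5), and only 3 of the 12, at Coq2 and Pdss2, were counted for the member alone.

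**Figure D3:**
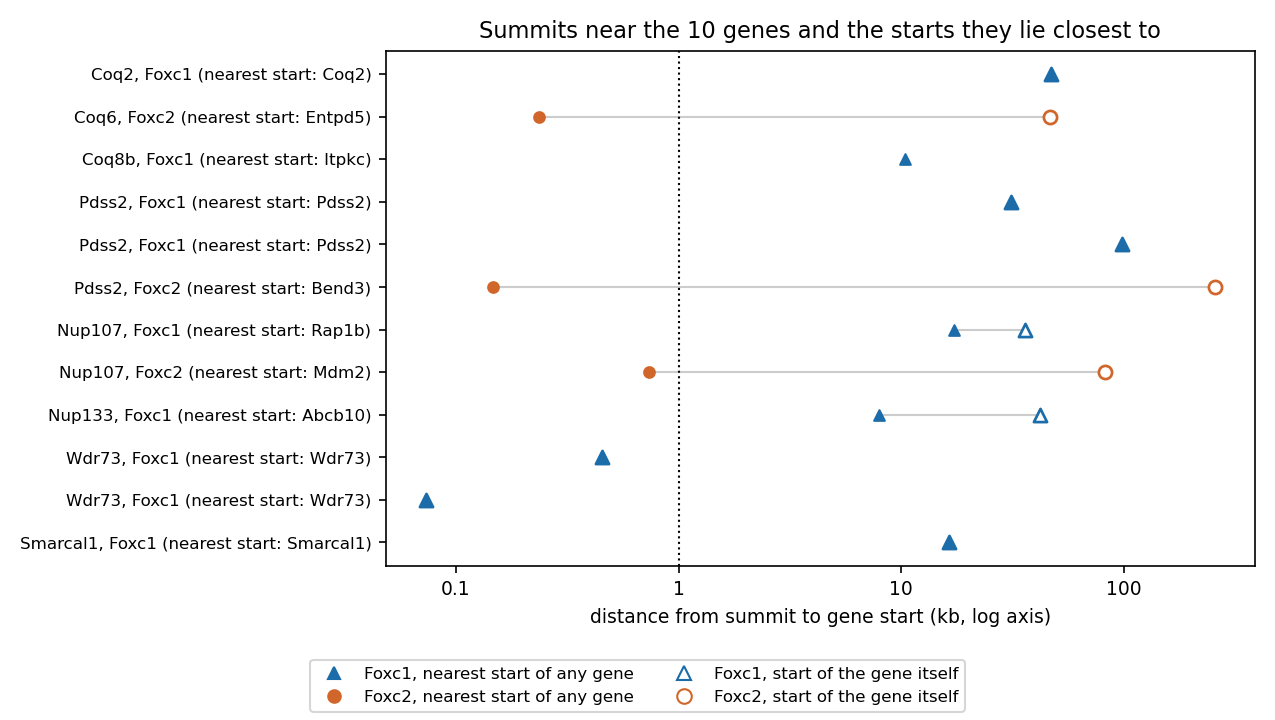
Distance from each of the 12 summits to the nearest listed start of any protein-coding gene (filled) and to the start of the member itself (open, where it is another start; none for Coq8b), in kb on a log axis with a dotted line at 1 kb. The 3 Foxc2 summits lie 0.147 to 0.733 kb from a neighbour's start, and only the Wdr73 summits are within 1 kb of the member's own start.

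Other genes of the same machineries are given beside the shares of all genes, 29.3% for Foxc1 and 23.2% for Foxc2, from which they were not tested. Of 9 further coenzyme Q genes, 3 were assigned at least 1 Foxc1 summit and 4 at least 1 of Foxc2. Coq8a, a paralog of Coq8b, had a Foxc1 peak of fold 6.33 with its summit 49.99 kb from the gene, at the very edge of the window. Coq10b, which encodes a coenzyme Q binding protein, had 2 Foxc2 peaks, the stronger with a fold of 4.47 and its summit 0.301 kb from the start. Coq7, a hydroxylase gene, had a Foxc2 peak of the same fold 8.71 kb from its start. Coq5, a methyltransferase gene, had 1 peak of each antibody, at folds of 4.27 (Foxc1) and 2.67 (Foxc2). Their summits lay 14.9 and 30.2 kb outside its span.

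Of 28 further nuclear pore genes, 10 were assigned at least 1 Foxc1 summit and 7 at least 1 of Foxc2. Gle1, an mRNA export factor, held a Foxc1 peak inside the gene with a fold of 18.7, and a Foxc2 peak with a fold of 4.13 lay 6.03 kb beyond it. Nup88, of the cytoplasmic face of the pore, had 4 Foxc1 peaks, the strongest at a fold of 13.8 inside the gene, and no Foxc2 peak. Rae1, an mRNA export factor, had a Foxc1 peak of fold 6.64 with its summit 0.879 kb from the start. Seh1l, of the Y-shaped complex that holds Nup107 and Nup133, had 1 Foxc1 peak, of fold 5.85, with its summit 28.7 kb from the gene. These strongest Foxc1 peaks of Gle1 and Nup88 were higher than any near the 4 nucleoporin genes that are members here, of which the highest was 5.15 at Nup107. However, Gle1 and Nup88 were named for their high folds, out of 14 Foxc1 peaks, while the 4 members had 2. The median Foxc1 folds were close, 5.06 for the further nuclear pore genes and 4.95 for the 4 members.

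Of 21 other broadly expressed genes, most of them linked to podocyte or kidney disease, 7 were assigned at least 1 Foxc1 summit and 10 at least 1 of Foxc2. Lmna, which encodes nuclear lamins, had a Foxc1 peak of fold 16.1 with its summit 7.99 kb outside the span. It also had 3 Foxc2 peaks, the strongest of 4.50 at 43.7 kb outside, and 1 of 3.61 at 287 bp from a listed start. Xpo5, a nuclear export receptor gene, had 1 Foxc1 peak of fold 9.02 and 2 Foxc2 peaks of up to 5.43. The Foxc1 summit and the stronger Foxc2 summit lay 38.5 and 22.8 kb outside its span. Trim8, a ubiquitin ligase gene, had a Foxc2 peak of fold 7.52 with its summit 0.204 kb outside its span. Its Foxc1 peak of 5.70 had the summit 22.6 kb outside. Nos1ap, which encodes an adaptor of nitric oxide synthase, had 3 Foxc1 peaks of up to 6.17 and 1 Foxc2 peak of 3.63 at 0.084 kb from its start. In this list 5 of 20 genes with a listed start had a Foxc2 summit within 1 kb of it, in the other coenzyme Q genes 2 of 8, and in the other nuclear pore genes 2 of 24, beside 0 of 9 members and 8.36% of all genes with a listed start. At these counts, 2 of 24 and 0 of 9 are near the share of all genes.

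A list of genes of podocyte structure and regulation, most of them mutated in nephrotic syndrome, is described beside the members without a test, since the lists were chosen with earlier results known. Foxc1 peaks were assigned to 31 of 40 such genes, against 29.3% of all genes, and Foxc2 peaks to 28 of 40, against 23.2%. Both antibodies had peaks at 26 of the 40, beside 2 of the 10 members and 12.5% of all genes. Of the 31 podocyte-enriched genes with a listed start, 8 had a Foxc2 summit within 1 kb of it, against 8.36% of all such genes. The median fold of the members' Foxc1 peaks was 4.75, beside 4.67 for the podocyte-enriched genes, and that of their Foxc2 peaks was 3.78, beside 4.83. Their median span was 67.6 kb, longer than the 47.1 kb of the members. Tns2 reached a Foxc1 fold of 36.9, Arhgap24 25.0, Clic5 22.5 and Kank1 18.0. In the same order, these genes reached Foxc2 folds of 4.13, 5.57, 11.5 and 4.81. For Tns2 these summits lay outside the span, by 8.49 kb (Foxc1) and 24.4 kb (Foxc2). For Arhgap24 (span 698 kb), Clic5 and Kank1 they lay inside it. Tns2 also had weaker Foxc2 peaks, of folds 3.44 and 3.78, with summits 142 and 820 bp from a listed start. Across the podocyte-enriched genes, 13 of 70 Foxc1 peaks were overlapped by the other antibody, against 8.2% of the whole Foxc1 list. The same held for 13 of their 57 Foxc2 peaks, against 14.8%. For the other coenzyme Q genes it was 0 of 4 and 0 of 5, for the other nuclear pore genes 0 of 14 and 0 of 9, for the other broadly expressed genes 0 of 9 and 0 of 16, and for the members 0 of 9 and 0 of 3. These counts of 0 rest on 3 to 16 peaks each. Whether these lists differ from each other was not tested.

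**Figure D4:**
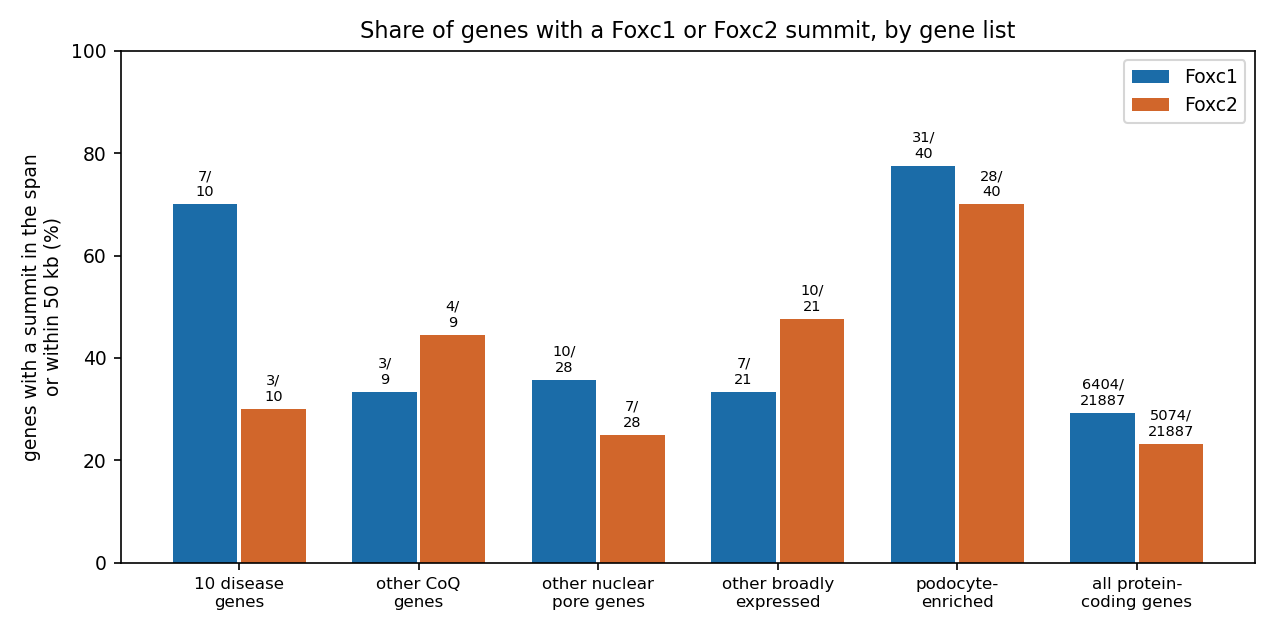
Share of genes (%) with a Foxc1 or Foxc2 summit in the span or within 50 kb, for the 10 disease genes, for the other lists and for all 21887 protein-coding genes, with the counts above the bars. Bars for the 10 disease genes stand at 7 of 10 and 3 of 10, beside 31 and 28 of 40 for podocyte-enriched genes.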

How the data were processed

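ChIP-seq libraries for Foxc1 and Foxc2 were represented by 1 deposited peak list each. Per the submitters' processing notes, Bowtie2 was used for mapping, MACS2 for peak calling, and mm10 as the genome. The calling settings, the control and any pooling are not stated there. For each peak the authors deposited a fold enrichment (the ratio of the summit to local background), −log10 values of its p-value and q-value, and a score that repeats the −log10 q and was not used. Every deposited peak had a q-value under 0.05. Depth is unknown, since the lists hold no read counts.

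Peaks on chromosomes 1 to 19, X and Y were kept. Gene spans came from RefSeq GRCm38.p6, and gene starts with strand from its promoter table, which lists starts on 20 of the 21 chromosomes used. Exons were not used. Overlap needed 1 bp. The assignment steps were tested on simulated data. Python 3.11.15, pandas 2.3.3, numpy 2.4.6 and scipy 1.17.1 were used. The members and gene lists were chosen with earlier results of these data known. All members were named, with up to 4 genes of each other list by highest fold of either antibody. Neighbours were named where a summit lay within 1 kb of their start or inside their span. Abcb10 was named as the nearest start to the Nup133 summit. Of the list names, 2 were matched by a synonym. No p-value was computed. Alternatives covered the assignment distance, stricter peaks, equal list length, nearest-gene assignment, the start window and the overlap.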

Additional observations from a re-analysis of the deposited data

How the results depend on the processing

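With summits inside the gene span only, the members with a Foxc1 summit numbered 3, with a Foxc2 summit 0 and with both 0, and the peaks 4 and 0 (all genes: 9.53% with Foxc1, 7.58% with Foxc2). These shares were not adjusted for the longer spans of the members. Within 10 kb the counts were 3, 0 and 0 members and 5 and 0 peaks (all genes: 15.2% and 12.7%). Within 100 kb there were 15 Foxc1 peaks near 9 members and 4 Foxc2 peaks near 3 members (all genes: 42.6% and 33.6%). At a q-value of 1e-05 or less, 6 members kept a Foxc1 summit, 1 (Pdss2) a Foxc2 summit and the same 1 both, with 1 Foxc2 peak (all genes: 27.2% and 11.5%). At a fold of 5 or more, 3 members (Coq8b, Nup107 and Wdr73) had a Foxc1 summit with 3 peaks, and 0 had a Foxc2 summit, 0 both, with 0 Foxc2 peaks (all genes: 16.9% and 3.9%). The same 3 members had a Foxc1 summit among the 2878 strongest Foxc1 peaks, with 4 peaks and 1 member with both (all genes: 18.9% with Foxc1). When each summit went to the gene of nearest span, 4 members (Coq2, Pdss2, Wdr73 and Smarcal1) had a Foxc1 summit, 0 a Foxc2 summit and 0 both, with 0 Foxc2 peaks. The share of all genes was not computed under that rule, so these counts cannot be set against it. For summits of both antibodies, the share of all genes was computed in the main setting only. The window was narrower or wider, the peaks were fewer, or 1 gene took each summit, by construction of these settings. The 1 member with a Foxc1 summit at its start, the 0 with a Foxc2 summit there and the 0 shared peaks were the same in every alternative run for them. No paired analysis was possible because each antibody has 1 library and no test was made. Depth is unknown, so an empty window may hold sites too weak for these lists.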

Other observations

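The promoter windows of the members differed in base composition. Of the 10 listed starts, the second start of Nup93 had the lowest GC content, 40.3%, with 3 CpG dinucleotides in 300 bases, and Nup107 the highest, 68.0%, with 27. Wdr73, the member with Foxc1 summits at its start, had 55.7% GC and 20 CpG. The neighbouring windows nearest to the Foxc2 summits had 77.7% GC at the upstream start of Bend3, 77.0% at Bbof1, 65.3% at Entpd5 and 64.7% at Mdm2, of which those of Bend3 and Bbof1 lay above every member start. The median was 60.7% at the members' starts, 67.7% at starts with a Foxc2 summit within 1 kb, 62.0% at starts with a Foxc1 summit within 1 kb and 56.3% at all listed starts. Base composition was not tested as a part of any result. Of these windows, Mdm2 holds 1 match to TGTTTAC, and its Foxc2 summit lay 733 bp into the gene, outside the window.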
